A study of Mus musculus with 6 samples.

Results

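The ceramidases and the enzymes of sphingolipid turnover comprise 10 genes here: the alkaline ceramidases Acer1, Acer2 and Acer3, the acid ceramidase Asah1, the neutral ceramidase Asah2, the sphingosine kinases Sphk1 and Sphk2, the sphingosine 1-phosphate lyase Sgpl1, and the sphingomyelin synthases Sgms1 and Sgms2. Every probe whose gene symbol in the platform annotation is one of these names was taken, which gave 23 probes for 10 of 10 genes, out of 19057 named genes on the array. The family was chosen on measured values of the same comparison, in which Acer2 was among the most raised genes. The differences between genotypes of these 10 genes are therefore given as descriptions, with their errors and without p-values. Total RNA came from embryonic fibroblasts (MEFs), cultured connective tissue cells of mouse embryos, of the C57Bl/6NCr strain. One group had both copies of Lasp1 intact (Lasp1+/+, wild type, 3 arrays) and the other had no intact copy (Lasp1-/-, Lasp1 knockout, 3 arrays). LASP1 is an actin-binding protein of focal adhesions. The labels do not say whether the 3 arrays of a genotype came from separate cultures or embryos, so errors and p-values measure the spread between these arrays, which may be technical.

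Ceramide is the central sphingolipid. It is joined to a phosphocholine group by sphingomyelin synthases to make sphingomyelin, a lipid of the plasma membrane, and it is cut by ceramidases into sphingosine and a fatty acid. Sphingosine is phosphorylated by sphingosine kinases to sphingosine 1-phosphate, a signalling lipid that acts on cell surface receptors and is known for its effects on cell migration and survival. The lyase breaks sphingosine 1-phosphate down irreversibly and is the exit from the pathway. Acid ceramidase works in the lysosome, neutral ceramidase at the cell surface, and the alkaline ceramidases in the endoplasmic reticulum and Golgi.

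The stretches upstream of the 3 alkaline ceramidase genes are shown because 1 of these close relatives differed widely between the genotypes and the other two differed little or were dim. Each runs from 250 to 67 bases before an annotated start, 5′ to 3′ along the gene's own strand, from RefSeq windows of build GRCm38.p6, which held 9 of the 10 genes. The capitals mark a GC box, GGGCGG or its reverse complement. Acer1 lies at chr17:56982193-56982376 on the minus strand, Acer2 at chr4:86874164-86874347 on the plus strand, and Acer3 at chr7:98309609-98309792 on the minus strand, inside the annotated span of Acer3, which has a further start upstream. The Acer2 stretch ends directly before its annotated span, which starts at 86874348, and the Acer1 stretch ends 67 bases before its own. The 3 stretches therefore do not lie at like positions relative to the outermost annotated start.
Acer1: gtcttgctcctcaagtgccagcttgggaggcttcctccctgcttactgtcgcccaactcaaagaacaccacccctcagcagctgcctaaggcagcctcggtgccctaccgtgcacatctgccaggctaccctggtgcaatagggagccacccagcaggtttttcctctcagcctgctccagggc
Acer2: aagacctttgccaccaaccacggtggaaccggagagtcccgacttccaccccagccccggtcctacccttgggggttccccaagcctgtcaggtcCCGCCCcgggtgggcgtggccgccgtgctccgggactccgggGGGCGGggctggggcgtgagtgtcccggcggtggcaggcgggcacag
Acer3: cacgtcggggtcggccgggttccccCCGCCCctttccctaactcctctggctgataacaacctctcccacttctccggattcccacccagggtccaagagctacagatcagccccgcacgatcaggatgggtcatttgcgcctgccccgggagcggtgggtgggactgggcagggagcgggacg
The Acer2 stretch was 73.4% G and C, the Acer3 stretch 66.3% and the Acer1 stretch 60.9%, against a median of 51.1% over 27025 windows of the same 184 bases, 1 per gene. On both strands there were 2 GC boxes upstream of Acer2, 1 upstream of Acer3 and 0 upstream of Acer1, and 21.6% of all windows held at least 1. None of the 3 stretches held the letters CCAAT (26.1% of windows), TATAAA (8.86%), TGANTCA (5.18%) or CACGTG (3.85%). Each stretch stops 67 bases before an annotated start, and the bases nearer to that start were not searched. These matches describe the letters only, and no binding was measured.

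Each value is the brightness of a probe, not log-transformed, and the median over all probes is 1000 in every array. They still contain background light, so a level near 1000 cannot be read as expression and a fold with a dim side is smaller than it would be without background. Upper quartiles were 2330 in wild type replicate 2 and 2283 in knockout replicate 1, against 2018 to 2112 in the other arrays. Those 2 arrays also gave the highest reading of their group for 6 of the 10 enzymes (Acer2, Asah1, Asah2, Sphk1, Sphk2 and Sgms1), as they did for 47.9% of the 11985 genes above the median of all probes. Quantile normalization, which gives all arrays the same distribution, is set beside each enzyme whose groups it brought to overlap or moved apart; the part of the brightness in the differences was not tested otherwise. At the brightest Lasp1 probe the knockout arrays read 49770 to 51904 and the wild-type arrays 135295 to 148809, with means of 50898 ± 1072 and 144104 ± 7634 (SD, n = 3 each), 2.83-fold lower in knockout (adjusted p = 1.17e-05 from limma over all genes, lower in 3 of 3 arrays). The knockout level at that probe was 35.3% of the wild-type level. A second Lasp1 probe was 4.10-fold lower in knockout (means 12502 and 3097 in wild type and knockout). The dimmest, near the array median, was 1.20-fold lower (1107 and 923) and not called in the fit of all probes. The positions of the Lasp1 probes relative to the disruption were not analysed here. Fibroblast markers were bright in every array, with Col1a1 at 223679 to 270232. Their sum was lower in knockout (812180 to 867690 against 996357 to 1157293 in wild type).

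Acer2, the Golgi ceramidase that cuts ceramide to sphingosine, was the one member with a large difference. Its single probe read 1182, 1408 and 1179 in wild type replicates 1 to 3, and 4674, 3966 and 3791 in the knockout replicates. All 3 wild-type arrays lay close to the array median and all 3 knockout arrays lay well above it, so the groups did not overlap. The means were 1256 ± 131 and 4144 ± 467 (SD, n = 3 each), a difference of 1.72 ± 0.11 (SE) on the log2 scale, or 3.30-fold. Because the wild-type side was near background, the size depended on how background was treated: with normexp background correction the difference was 2.51, or 5.71-fold. Acer2 has no further probe on the array against which to check it.

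The other alkaline ceramidases did not share that difference. Acer1, known mainly from epidermis, gave 993 to 1060 in wild type and 992 to 1033 in knockout at its brighter probe, which is at the array median, and 874 to 886 and 824 to 928 at the other. Its groups overlapped at both probes, at a level where these arrays could not show expression. Acer3, which prefers ceramides with long unsaturated chains, read 23594, 24523 and 24717 in wild type and 22358, 19066 and 20566 in knockout at its brighter probe. Every knockout array was below every wild-type array there, with a difference of -0.24 ± 0.08 (SE) on the log2 scale. Its dimmer probe, at 1358 to 1591 and 1383 to 1576, overlapped (-0.05 ± 0.09), and after quantile normalization the brighter probe overlapped too (-0.14).

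Asah1, the lysosomal acid ceramidase, was bright and slightly lower in knockout. Its brightest probe read 203745, 234257 and 207066 in wild type against 193694, 184344 and 185224 in knockout, groups that did not overlap, with a difference of -0.19 ± 0.08 (SE) on the log2 scale. A dimmer probe also kept the groups apart, at 4067 to 6145 and 3889 to 3986 (-0.36 ± 0.13 SE), and the remaining one, at 773 to 965, was below the median probe. Asah2, the neutral ceramidase, read 5632, 7419 and 6599 in wild type and 6289, 5110 and 5439 in knockout. Those groups overlapped, with a difference of -0.22 ± 0.12 (SE) on the log2 scale, and its other probes lay between 824 and 1273. After quantile normalization the difference was -0.125 and all knockout arrays lay below all wild-type arrays, and without wild type replicate 2, the highest array, it was -0.12. So of the 5 ceramidases, Acer2 was higher in knockout, Acer3 and Asah1 were a little lower at their brightest probes, and Asah2 and Acer1 overlapped in the deposited values.

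**Figure D1:**
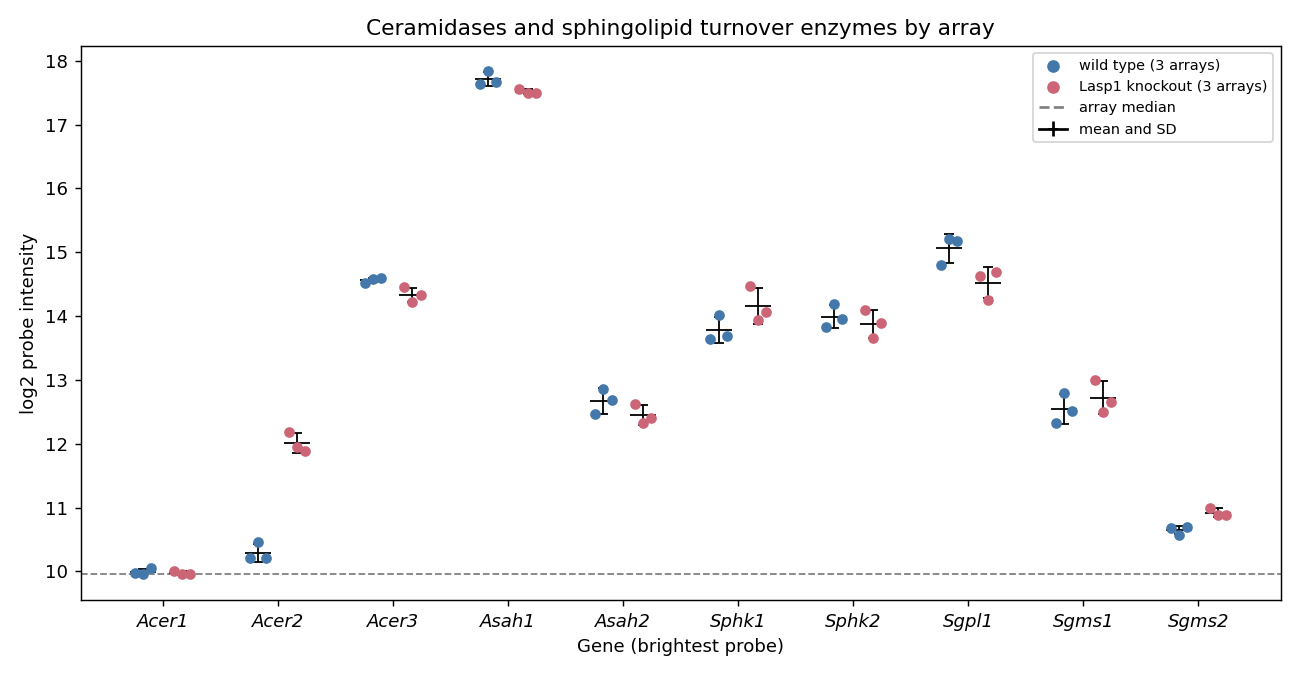
Log2 probe intensity (vertical axis) of the brightest probe of each of the 10 enzymes (horizontal axis) in 3 wild-type arrays and 3 Lasp1 knockout arrays, 1 point an array, with the mean and SD in black and the array median of 1000 as a dashed line. Acer2 moves from close to the dashed line in wild type to 3791 to 4674 in knockout, while heights of different genes are not comparable because each probe has its own response.

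Sphk1, the inducible kinase that makes sphingosine 1-phosphate at the plasma membrane, had a higher mean in knockout without separating the groups. Its brightest probe read 12774, 16640 and 13260 in wild type and 22667, 15724 and 17178 in knockout, so that wild type replicate 2 lay above knockout replicate 2. The difference was 0.37 ± 0.15 (SE) on the log2 scale, and 0.22 without knockout replicate 1, the highest array. After quantile normalization it was 0.47 and the groups no longer overlapped. The other Sphk1 probes stayed at 908 to 1047 in all 6 arrays and carry no information on the direction.

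Sphk2, the kinase found also in the nucleus and mitochondria, overlapped at every probe. Its 2 bright probes read 14541, 18686 and 15889 against 17539, 12932 and 15121, and 12073, 18524 and 15562 against 14961, 12373 and 13257, in wild type and knockout. The differences were -0.11 ± 0.13 and -0.17 ± 0.14 (SE) on the log2 scale, and the remaining probe, at 801 to 943, was below the median probe. The difference of its brightest probe ranged from -0.22 to 0.0002 over 14 alternative settings, so no direction can be given for Sphk2.

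Sgpl1, the lyase that ends the pathway, read lower in knockout at both of its probes. The brighter gave 28490, 37875 and 36938 in wild type and 25273, 19456 and 26472 in knockout, and the other 10897, 11416 and 11652 against 10667, 8551 and 8245. All knockout arrays lay below all wild-type arrays at each probe, and the differences were -0.54 ± 0.14 and -0.32 ± 0.10 (SE) on the log2 scale. Among the enzymes this was the next difference in size after Acer2. The difference at the brighter probe ran from -0.67, without wild type replicate 1, to -0.40, without knockout replicate 2, over 14 alternative settings.

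**Figure D2:**
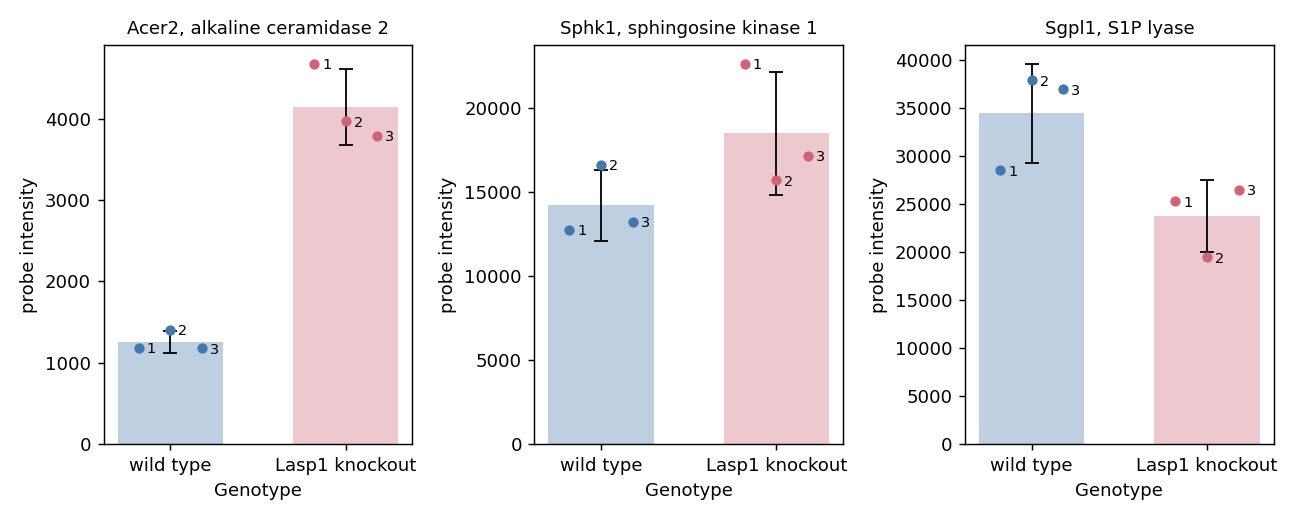
Probe intensity on a linear axis from 0 for Acer2, Sphk1 and Sgpl1 at their brightest probes, with bars for the group mean, error bars for the SD (n = 3) and a numbered point for each replicate. Acer2 and Sgpl1 keep the genotypes apart in opposite directions, and for Sphk1 wild type replicate 2 at 16640 lies above knockout replicate 2 at 15724.

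Of the sphingomyelin synthases, Sgms2, the enzyme of the plasma membrane, read 1633, 1528 and 1659 in wild type and 2045, 1888 and 1886 in knockout at its single probe. The groups did not overlap, and the difference was 0.27 ± 0.07 (SE) on the log2 scale, at a level not far above the array median. With normexp background correction it was 0.42. Sgms1, the enzyme of the Golgi, gave 5154, 7069 and 5869 against 8217, 5785 and 6474 at its brightest probe, which overlapped (0.18 ± 0.15 SE). After quantile normalization the difference was 0.27 and the groups did not overlap, but without knockout replicate 1, the highest array, it was 0.03, and without wild type replicate 1 it was 0.07. A dimmer Sgms1 probe read 1235, 1578 and 1283 against 2258, 1701 and 1906 and did not overlap (0.52 ± 0.12 SE), and the remaining probe lay below the median probe at 846 to 910.

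**Figure D3:**
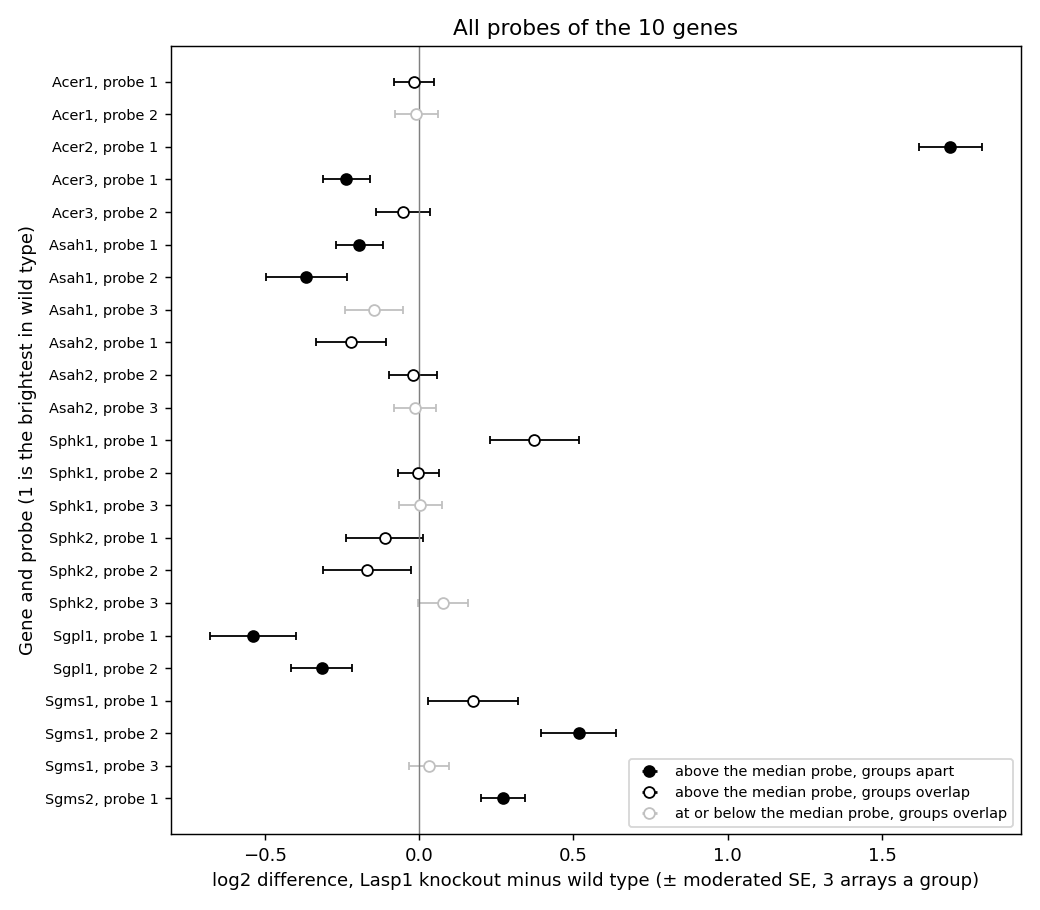
Log2 difference, knockout minus wild type (horizontal axis, with the moderated SE from 3 arrays a group), of all 23 probes of the 10 enzymes (vertical axis), filled where the genotypes did not overlap and grey where the probe was not above the median probe in either genotype. Acer2 stands at 1.72, all other probes lie between -0.54 and 0.52, and the 6 grey probes lie between -0.14 and 0.08.

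Across the family, 2 of 10 enzymes at their brightest probe lay wholly higher in knockout (Acer2 and Sgms2), 3 wholly lower (Acer3, Asah1 and Sgpl1), and 5 overlapped. Over all genes 21.3% did not overlap, and 27.7% of the genes above the median of all probes. After quantile normalization 4 enzymes lay wholly higher (Acer2, Sphk1, Sgms1 and Sgms2), 3 wholly lower (Asah1, Asah2 and Sgpl1) and 3 overlapped, beside 25.3% of all genes and 33.8% of the brighter ones that did not overlap. In limma's fit of all genes 1 of the 10 enzymes was called (adjusted p under 0.05), Acer2, beside 6.28% of all 19057 genes and 9.94% of the 11985 brighter ones; in the fit of all probes 1 of 23 was called, beside 3.90% of 45281. Since the family was chosen on this comparison, nothing is read from these counts. The median log2 difference of the 10 enzymes was -0.06, against -0.02 over all genes and -0.06 over the brighter genes. When every probe of an enzyme was averaged, dim ones included, the differences were 0.125 for Sphk1, -0.08 for Asah2, -0.07 for Sphk2 and -0.14 for Acer3. The signs of Acer1 and Sphk2 were not stable over the alternatives, and those of the other eight were.

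The genes whose profile over the 6 arrays was most like that of Acer2 were Sox5, Hoxa5, Sncg, Cemip and Cxcl1, by the root-mean-square difference of log2 values after each gene's own mean was removed, among 11984 genes above the median. The difference was 0.101 for Sox5, a transcription factor of cartilage cells, 0.103 for the homeobox gene Hoxa5, 0.122 for the synuclein gene Sncg, 0.132 for Cemip, whose protein binds and breaks down hyaluronan, and 0.144 for the chemokine Cxcl1. Sox5 read 3356, 4124 and 3753 in wild type and 12920, 10116 and 11486 in knockout. Their differences between the genotypes ran from 1.47 to 1.89 on the log2 scale, a likeness to Acer2 that the choice by profile fixes.

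Markers of other cell types were examined beside Acer2. The summed intensity of 8 macrophage and leukocyte markers was 11073 to 12571 in wild type and 14151 to 14845 in knockout. In a genotype, 6 of 8 lay above the median probe. Lyz2 was the one called (3297 to 4238 and 5307 to 5769). Cd14 also lay wholly higher (1611 to 2012 and 2139 to 2490), and 6 of the 8 overlapped. Ptprc, the defining leukocyte gene, read 857 to 976. The sum of 6 skeletal muscle markers was 11991 to 13585 and 21422 to 22509, with 4 of 6 above the median probe. Acta1 was called (3508 to 5221 and 12196 to 13789). Des also lay wholly higher (4167 to 4808 and 4924 to 5683), and 4 of the 6 overlapped, with Myod1 at 778 to 956. The sum of 8 endothelial markers was 10472 to 11122 and 11137 to 11696 (5 of 8 above, Pecam1 at 860 to 1082). Emcn, at 2226 to 2454 and 3342 to 3976, was the one endothelial marker called. Pecam1 also had a positive difference (0.20), from overlapping groups. The other 6 of the 8 had negative differences, and those of Tek and Esam (-0.29 and -0.30) came from groups that did not overlap. These 3 sums were higher in knockout, and in each 1 gene was called. Sums were lower in knockout for 11 keratinocyte and epithelial markers (28360 to 33195 and 16960 to 17984, 8 of 11 above). Krt14 fell (means 15557 and 2565), but 8 of the 11 overlapped and Cldn4 lay wholly higher (822 to 913 and 1003 to 1142). Krt5 and Epcam were at 756 to 924. Sums were also lower for 6 adipocyte markers (58675 to 72547 and 24663 to 30051, 4 of 6 above). Adipoq (3690 to 4710 and 932 to 1053), Lpl (means 55330 and 19739) and Lep were called lower, 3 of 6 beside 4.08% of all genes. Lep was near the array median (1286 to 1360 and 1065 to 1119). Pparg overlapped, and Fabp4 was at 771 to 912 and Plin1 at 824 to 930. The sum of 10 fibroblast markers was lower too (996357 to 1157293 and 812180 to 867690, 10 of 10 above). All 10 had negative differences, 8 in groups that did not overlap, and 5 were called lower, beside 4.08% of all genes. The sums of 7 neural and melanocyte markers overlapped (25814 to 40599 and 20152 to 27116, 4 of 7 above). Sox10 was called lower (2914 to 4192 and 2023 to 2698), and 6 of the 7 overlapped. In such bulk RNA a change in the number of cells of a type and a change in RNA per cell cannot be told apart, and the part of these cell types in the Acer2 difference was not tested.

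The rest of sphingolipid metabolism showed small differences. Of 65 measured genes in 6 lists, limma called 2 higher and 4 lower in knockout, shares of 3.08% and 6.15% beside 2.19% and 4.08% over all genes. All 6 were among the 49 that lay above the median over all arrays, 12.2% of them, beside 9.94% of all such genes. Groups did not overlap in 18 of the 65, or 27.7%, beside 21.3% of all genes, and in 13 of the 49, or 26.5%, beside 27.7% of the brighter genes. The median log2 difference of the 65 was -0.06. After quantile normalization, 4 were higher, and over all genes the calls were 1009 higher and 1083 lower against 418 and 778 as deposited.

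Glycosphingolipid synthesis held both rises, in 2 of 13 genes. St3gal5, the sialyltransferase that makes the ganglioside GM3 from lactosylceramide, read 5838, 7307 and 7180 in wild type and 11815, 9297 and 10438 in knockout. It rose by 0.63 ± 0.12 (SE) on the log2 scale (limma adjusted p = 0.0122 over all genes, 3 of 3 arrays higher), and a dimmer probe kept the groups apart in the same direction (1342 to 1378 and 1553 to 1911). Ugcg, which adds the first glucose to ceramide, read 79653, 85413 and 87770 against 101557, 108872 and 102161. It rose by 0.31 ± 0.07 (limma adjusted p = 0.0418, 3 of 3 arrays higher), but its other probe overlapped (79802 to 82427 and 78837 to 97623), and with the mean of its probes the adjusted p was 0.12.

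The sphingomyelinases and related genes held 2 falls among 10, both phosphodiesterases. Smpd3, the neutral sphingomyelinase that releases ceramide from sphingomyelin, read 2678, 3579 and 3367 in wild type and 2086, 1872 and 2060 in knockout (-0.67 ± 0.11 SE on the log2 scale, limma adjusted p = 0.00813, 3 of 3 arrays lower). Smpdl3a, a secreted relative of acid sphingomyelinase that has nucleotides as substrates, read 11183, 10688 and 10577 against 7779, 8469 and 8156 (-0.41 ± 0.07, limma adjusted p = 0.00967, 3 of 3 arrays lower). Smpd1, the lysosomal acid sphingomyelinase, overlapped (-0.04 ± 0.08, limma adjusted p = 0.872). The ceramide transfer protein gene Cert1 did not pass (-0.28 ± 0.07, limma adjusted p = 0.0586).

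Among 10 genes of lysosomal glycosphingolipid breakdown, 1 fell and 9 did not pass, with a list median of -0.20. Arsa, the sulfatidase lacking in metachromatic leukodystrophy, read 18928, 23846 and 20388 in wild type and 15993, 15751 and 13366 in knockout (-0.48 ± 0.11 SE, limma adjusted p = 0.0291, 3 of 3 arrays lower), and with the mean of its bright and its dim probe the adjusted p was 0.0848. The other 9 had overlapping groups. Hexa, Gm2a, Glb1 and Neu1 gave -0.35 ± 0.13, -0.40 ± 0.17, -0.29 ± 0.12 and -0.30 ± 0.13. Psap, Neu3 and Galc gave -0.12 ± 0.09, -0.09 ± 0.08 and -0.02 ± 0.08, and Gba2 and Gla 0.06 ± 0.12 and 0.15 ± 0.17.

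Downstream of the kinases, the endoplasmic reticulum phosphatase Sgpp1, which returns sphingosine 1-phosphate to sphingosine, read 17952, 21905 and 20350 in wild type and 13323, 15767 and 11724 in knockout. It fell by 0.57 ± 0.12 (SE) on the log2 scale (limma adjusted p = 0.0225, 3 of 3 arrays lower) and was the only call in its list of 10 genes. In that list 7 of 10 differences were negative, with a median of -0.12. Groups lay wholly lower in 5 genes and wholly higher in 1, beside 21.3% of all genes that did not overlap. The 2 largest positive differences, of the lipid phosphate phosphatase Plpp2 (0.35 ± 0.12) and the exporter Abcc1 (0.33 ± 0.10), did not pass. Their adjusted p were 0.153 and 0.104 from limma. Plpp2 overlapped, and Abcc1 was near the array median (970 to 1268 and 1316 to 1467). Neither list of the remaining genes held a call: 0 of 5 sphingosine 1-phosphate receptors, of which S1pr2 (41256 to 49517 over the 6 arrays, -0.06 ± 0.08) and S1pr3 (2082 to 2661, -0.11 ± 0.10) were well above the median probe, and 0 of 17 genes of ceramide synthesis, whose differences ran from -0.24 to 0.16. At an unadjusted limma p under 0.05 these were 0 of 5 and 1 of 17, beside 3548 of all 19057 genes.

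**Figure D4:**
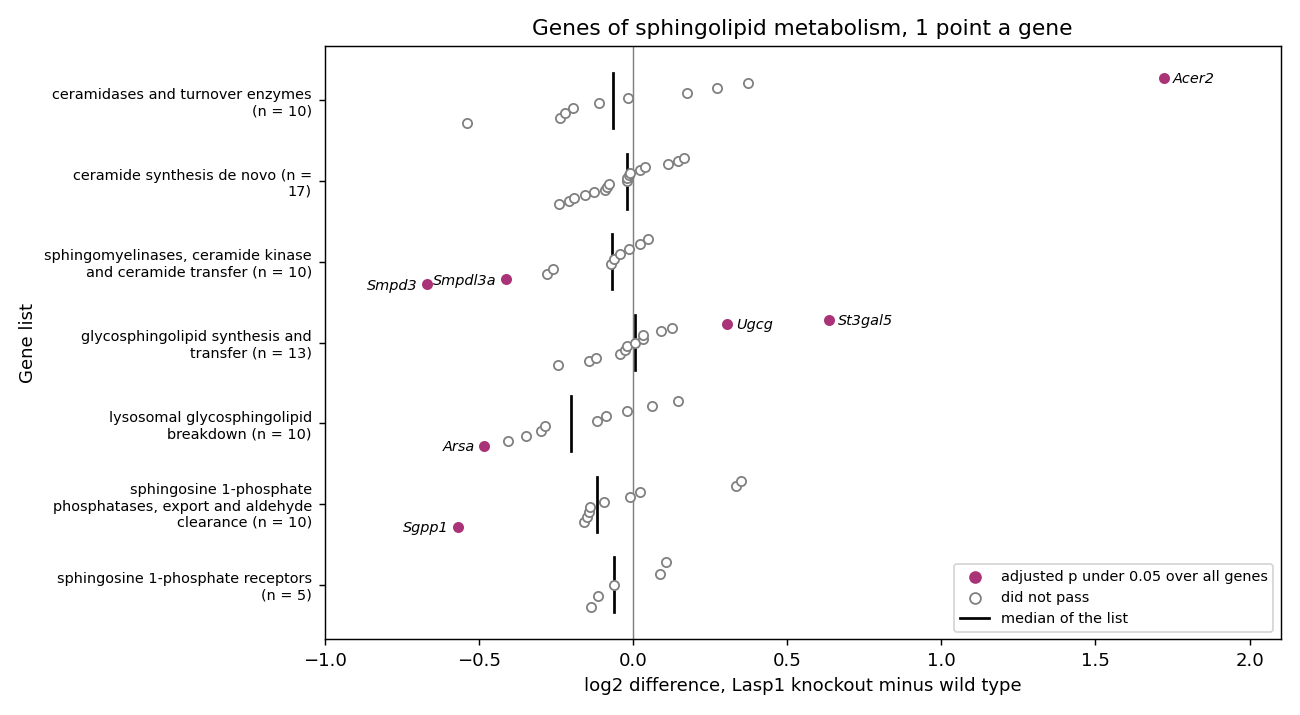
Log2 difference, knockout minus wild type (horizontal axis), of every measured gene of the family and of 6 further lists of sphingolipid metabolism (vertical axis), 1 point a gene, filled where the adjusted p was under 0.05 over all genes, with a bar at the median of each list. Acer2 at 1.72 lies far to the right of the next point, St3gal5 at 0.63, and the filled falls are Smpd3, Sgpp1, Arsa and Smpdl3a.

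The calls outside the family changed with the arrays and the model used, as did the share called over all genes (6.28% as deposited). The signs of all 6 held in 14 of 14 alternatives. With the replicate number as a block, and with knockout replicate 3 left out, limma called 0 of the 65 genes. Over all genes it called 2.18% and 2.43% there. At an unadjusted limma p under 0.05 these were 9 and 10 of the 65, beside 2678 and 2617 of all 19057 genes. Without wild type replicate 3, 1 fell and 0 rose, beside 2.68% of all genes called. Without wild type replicate 1, 7 fell and 1 rose, beside 8.36%. Without wild type replicate 3, Smpdl3a was called, and Smpd3 (-0.63), St3gal5 (0.68), Arsa (-0.50), Sgpp1 (-0.55) and Ugcg (0.34) were not. Without knockout replicate 1 Sgpp1 was not called (-0.56), without knockout replicate 2 Arsa was not (-0.52), and Ugcg was called in no fit that left out an array.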

How the data were processed

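Per the labels' protocols, total RNA was isolated with a commercial kit and biotin-labelled cRNA was prepared for Illumina bead arrays. The authors deposited probe intensities on a linear scale, and scanner, software and background handling were not stated in the labels or file header (not given in the sources used). Every array has a median of 1000 over 45281 probes; the number of arrays limits the precision. Gene symbols came from the platform annotation (34885 probes with 1 symbol, 18 with several, 10378 with none).

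After log2 transformation of the deposited intensities, genotype was the only term of a linear model over all 6 arrays (lmFit and eBayes of limma 3.58.1, under R 4.3.3), with 1 probe a gene, that with the highest mean, for 19057 genes, and Benjamini-Hochberg adjustment over all of them (two-sided, threshold 0.05). All probes were fitted likewise. Of 69 listed pathway genes, 65 were analysed. Differences are knockout minus wild type. The scripts were tested on simulated data.

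The members and lists were chosen with earlier results of these data known. Named were the 10 members, Lasp1, up to 3 rises and 3 falls called per pathway list, and the 5 genes nearest to Acer2. Other genes (Smpd1, Cert1, Hexa, Gm2a, Glb1, Neu1, Psap, Neu3, Galc, Gba2, Gla, Plpp2, Abcc1, S1pr2, S1pr3 and markers) were chosen after their values were seen. Alternatives were quantile normalization, normexp with an offset of 50, a floor of 1000, genes above the median only, trend with robust estimation, array weights, the mean of all probes, the replicate block, and leaving out each array.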

Additional observations from a re-analysis of the deposited data

How the results depend on the processing

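The log2 difference of Acer2 was 2.51 with normexp and 1.63 to 1.81 with an array left out, and the call of Lasp1 held in all 14 alternatives. Calls among the 10 enzymes were 3 higher and 1 lower after quantile normalization, beside 11% of all genes called. They were 3 and 2 with array weights, beside 17.1%, and 2 higher with the mean of all probes, beside 5.01%. Among genes above the median, or with trend and robust estimation, 1 was lower beside Acer2, against 9.84% and 6.46% of the genes. With an array left out there was 1 higher (Acer2) and 0 to 1 lower, beside 2.43% to 8.36%. As deposited, 6.28% of all genes were called. Since the family was chosen on this comparison, nothing is read from these counts of enzymes. Calls among the 65 other pathway genes, 2 higher and 4 lower, became 4 higher after quantile normalization, 0 and 1 with normexp and with the floor, 1 higher among genes above the median and with the mean of all probes, 4 and 10 with array weights, and 0 to 3 higher and 0 to 7 lower with an array left out. Over all genes, 418 higher and 778 lower became 1009 and 1083 after quantile normalization, 222 and 316 with normexp, and 155 and 201 with the floor. With array weights they became 985 and 2282, and with an array left out 207 to 729 and 244 to 1217. The cause of these changes was not tested.

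With the replicate number as a block, limma called 179 genes higher and 236 lower, or 2.18% of all genes. It called 0 and 0 of the 65 pathway genes, and Acer2 as before (1.72). At an unadjusted limma p under 0.05 there were 9 of the 65, beside 2678 of all 19057 genes. The numbers do not pair the arrays: the deviations of same-numbered arrays from their group means correlated at -0.41, -0.34 and 0.22, and not every array correlated best with its own number. Where both genotypes lie near 1000, as for Acer1, signal over background was too small to show a difference.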
